A study of Homo sapiens with 18 samples.

Results

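The transcription factors that direct early B-cell development were described as a group of 10 genes: *TCF3*, *EBF1*, *FOXO1*, *PAX5*, *IKZF1*, *IKZF3*, *LEF1*, *ERG*, *ETV6* and *RUNX1*. The genes were chosen by symbol with earlier results of these data known, and all 10 were found among the 26941 genes of the count tables. RNA had been sequenced from 18 samples of 3 established lines of B-cell precursor leukemia (BCP-ALL), with 3 *SOX11* siRNA samples and 3 control siRNA samples in each line. REH carries the ETV6-RUNX1 (E/R) fusion, and 697 and RCH-ACV represent another genetic subtype. Within a line both groups had been nucleofected with siRNA at 300 nM and collected after 48 h, so the control group differed in the sequence of the siRNA and not in the handling. Each line is a single tumour-derived culture, so the samples of a line are repeats of that culture and not of patients.

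B-lymphoid commitment runs through a short hierarchy of these factors. The E proteins encoded by *TCF3* (E12 and E47) open the programme and activate *EBF1* and *FOXO1*. EBF1 is the pioneer factor that specifies the B lineage, and it acts with PAX5, which then holds B-cell identity. Ikaros (*IKZF1*) and its relative Aiolos (*IKZF3*) carry the cells from the large to the small pre-B stage, and *LEF1* encodes an HMG-box factor of the Wnt pathway that binds precursor B-cell genes. *RUNX1*, *ETV6* and the ETS factor *ERG* act in blood stem cells and remain in use in early B cells. *RUNX1* and *ETV6* are broken by the fusion of REH, and *PAX5*, *IKZF1*, *EBF1* and *ERG* are recurrent targets of mutation or deletion in BCP-ALL. SOX11 is itself an HMG-box factor that is not made by normal B cells.

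On hg19 the genes of the hierarchy lie at chr19:1609290-1652614 (*TCF3*), chr5:158122928-158526924 (*EBF1*), chr13:41129804-41240778 (*FOXO1*) and chr9:36833266-37034265 (*PAX5*). *IKZF1* lies at chr7:50343664-50472799, *IKZF3* at chr17:37913971-38020565 and *LEF1* at chr4:108968701-109090112. *ERG* lies at chr21:39751949-40033704, *RUNX1* at chr21:36160098-37376965 and *ETV6* at chr12:11802608-12048311. These positions are those of the genes in the GENCODE annotation lifted to hg19. *IKZF1* and *ETV6* are on the plus strand and the other members on the minus strand.

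Start-site windows were compared because SOX11 binds DNA. RefSeq windows on GRCh38.p14, each of 300 bases from 250 before to 50 after a start, were matched for 9 of the 10 members, all but *IKZF3*, with 14 windows among them. They were searched on both strands for 4 words that SOX factors can bind, namely the word ACAAAG, the word TCAAAG, the word ACAATG and the word TCAATG. A word was present in 5 of the 14 windows, at *IKZF1*, *ERG* and *ETV6*, against 37.5% of all 35097 windows in the table. The windows below belong to the members that were lower after *SOX11* siRNA in at least 1 line, and capitals mark a word or its reverse complement. The *EBF1* window (chr5:159097907-159098206, minus strand) holds none, the *IKZF1* window (chr7:50304466-50304765, plus strand, from 1 of its 3 annotated starts) holds 2, starting 76 and 48 bases before the start, and the *ERG* window (chr21:38498455-38498754, minus strand, from 1 of its 4 annotated starts) holds 1, starting 100 bases before it. The other *IKZF1* windows hold 0 and 1, and of the other *ERG* windows the one that overlaps the printed window holds the same match and the rest hold 0. A match is a run of letters and not a measured binding site.
EBF1: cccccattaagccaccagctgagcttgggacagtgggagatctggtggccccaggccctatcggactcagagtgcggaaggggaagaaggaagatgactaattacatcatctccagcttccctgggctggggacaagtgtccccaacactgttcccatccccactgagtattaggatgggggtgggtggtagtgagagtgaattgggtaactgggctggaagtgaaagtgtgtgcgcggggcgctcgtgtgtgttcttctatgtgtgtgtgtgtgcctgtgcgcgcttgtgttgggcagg
IKZF1: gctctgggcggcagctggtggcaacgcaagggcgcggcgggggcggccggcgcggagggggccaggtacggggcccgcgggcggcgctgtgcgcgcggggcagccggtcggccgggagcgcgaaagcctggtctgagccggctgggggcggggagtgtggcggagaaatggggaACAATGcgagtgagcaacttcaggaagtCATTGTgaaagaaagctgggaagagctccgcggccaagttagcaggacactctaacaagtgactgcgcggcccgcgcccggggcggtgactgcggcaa
ERG: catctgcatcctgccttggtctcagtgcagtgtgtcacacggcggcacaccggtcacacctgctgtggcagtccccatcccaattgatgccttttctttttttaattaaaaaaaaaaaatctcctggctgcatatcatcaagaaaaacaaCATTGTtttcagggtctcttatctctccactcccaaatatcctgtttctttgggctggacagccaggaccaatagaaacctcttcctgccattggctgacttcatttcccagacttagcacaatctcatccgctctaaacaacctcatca

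Total counts per sample lay between 7039594 and 16592492, so 3 counts, taken as the smallest number that shows a gene, corresponded to 0.181 to 0.426 CPM (counts scaled to a common library size), and this floor covers counting error only. *SOX11* was lower in every *SOX11* siRNA sample than in every control sample of its line, and its log2 change was -0.91 in 697, -0.83 in REH and -0.67 in RCH-ACV. The knockdown was partial in these samples, since *SOX11* RNA remained at 0.53, 0.564 and 0.627 times control in the same order. The lines expressed most markers of their label. Of 12 B-cell precursor markers, 11 in REH and 12 in the other lines had at least 3 counts in every sample, and the summed level of the list was 4183 to 8262 CPM. *VPREB1*, the surrogate light chain gene, was the marker that REH lacked. The summed levels of the T-cell list (20.2 to 54.9 CPM), the myeloid list (13.6 to 40.4 CPM) and the erythroid and megakaryocyte list (1.78 to 25.4 CPM) were low, and *CD4*, *ELANE*, *S100A8*, *S100A9* and *HBB* were at 0 in all 18 samples. Some genes of these lists were expressed. Among them were *BCL11B* in every line (18.8 to 47.8 CPM) and *CSF1R* in RCH-ACV (23.1 to 30.4 CPM). REH expressed *EPOR* (21.6 to 24.3 CPM) and *MPO* (7.48 to 14.9 CPM). *CEBPA* was expressed in 697 (10.9 to 14.5 CPM) and in RCH-ACV (6.23 to 9.08 CPM). The list of 6 plasma cell genes was not low, at a summed 486 to 1460 CPM. *JCHAIN* was at 755 to 1064 CPM in 697, where *SDC1* was at 0, and *XBP1* was at 213 to 297 CPM over the lines.

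With control siRNA some factors stood at similar levels in the lines and others did not. *PAX5*, *LEF1*, *EBF1*, *TCF3* and *RUNX1* differed between lines by less than 2-fold, whereas *IKZF3*, *ERG* and *ETV6* differed by more than 5-fold between the highest and the lowest line. The lines were compared with edgeR's quasi-likelihood F-test over the 9 control samples, and a Benjamini-Hochberg adjusted p under 0.05 was the threshold. By this test 9 of the 10 members differed between 697 and REH, all 10 between RCH-ACV and REH, and 9 between RCH-ACV and 697. Differences between these lines were common, since 76.2%, 73.7% and 64.2% of the 13686 genes tested passed in the same comparisons. Line and any batch of a line cannot be told apart.

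**Figure D1:**
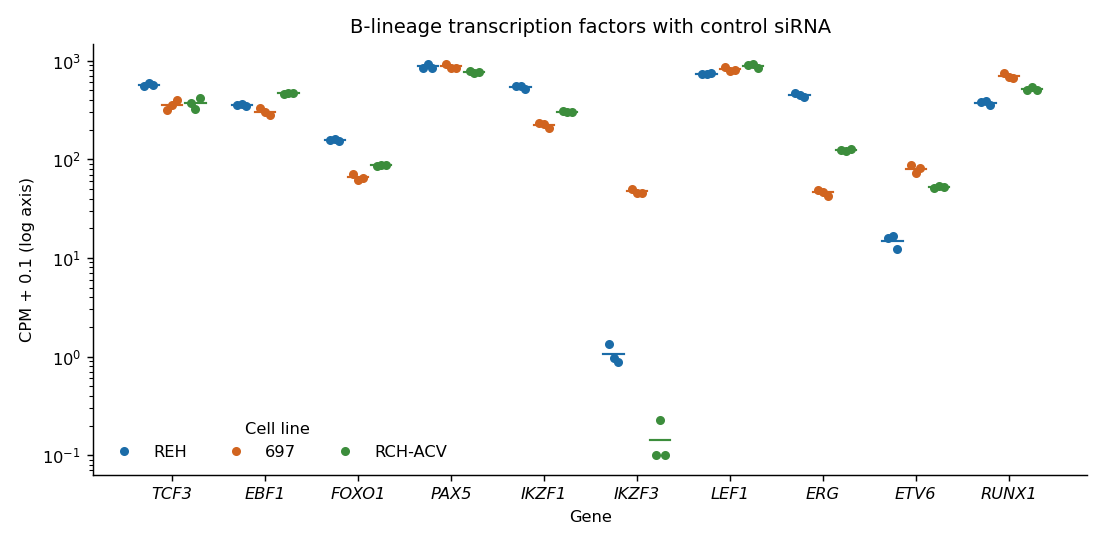
Levels of the 10 transcription factors in the 9 control siRNA samples, in CPM with 0.1 added on a log axis. Points are samples, horizontal bars are means (n = 3) and colours are cell lines. *IKZF3* spans the widest range, from 0 or 0.130 CPM in RCH-ACV to between 45.8 and 50.3 CPM in 697, and *PAX5* and *LEF1* lie close together in all lines.

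*PAX5*, the guardian of B-cell identity, was at 839, 933 and 843 CPM in the REH controls, 931, 842 and 849 in 697, and 793, 752 and 758 in RCH-ACV. The REH and 697 samples overlapped and their means did not pass the test (log2 difference 0.01, SE 0.05, adjusted p = 0.818). RCH-ACV was slightly lower than both, with log2 differences of -0.17 from REH (adjusted p = 0.00319, edgeR) and -0.18 from 697 (adjusted p = 0.00231). *LEF1* was at 736 ± 12.6 CPM in REH, 817 ± 33.5 in 697 and 890 ± 45.9 in RCH-ACV (SD, n = 3), and each step passed the test. Its step from REH to 697 (log2 0.16) was 0.03 when library size alone scaled the samples (adjusted p = 0.520), and its step from 697 to RCH-ACV (log2 0.13, adjusted p = 0.0144) did not pass without 697 control replicate 2 (0.0689), RCH-ACV control replicate 1 (0.0627) or RCH-ACV control replicate 2 (0.0827).

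*EBF1* was highest in RCH-ACV, at 463, 471 and 474 CPM. It was at 357, 362 and 350 CPM in REH and at 328, 300 and 283 CPM in 697. The 3 lines did not overlap, and RCH-ACV exceeded 697 by 0.63 on the log2 scale (SE 0.05, adjusted p = 1.09e-09, edgeR). *FOXO1*, an activator of the recombinase genes, followed another order, with 157 ± 4.73 CPM in REH, 86.6 ± 1.07 in RCH-ACV and 65.4 ± 4.73 in 697. Its level in 697 was 0.420 times that in REH (log2 -1.25, SE 0.06, adjusted p = 3.64e-13).

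The Ikaros pair differed from each other. *IKZF1* was at 553, 548 and 521 CPM in REH, 305, 299 and 300 in RCH-ACV and 232, 226 and 207 in 697. The lines were separate, and the level in 697 was 0.413 times that in REH (adjusted p = 9.64e-15, edgeR). *IKZF3* had 410, 312 and 340 counts in the 697 controls (50.3, 45.8 and 45.9 CPM), 13, 11 and 6 counts in REH (1.23, 0.859 and 0.776 CPM) and 0, 1 and 0 counts in RCH-ACV. Over the summed counts 697 exceeded REH 49.2-fold (95% counting interval 34.2 to 73.3), and RCH-ACV held 1 count in all, which gives a ratio of 697 over RCH-ACV of 1191 with an interval of 213 to 47090. At this depth *IKZF3* was at or under the floor in every RCH-ACV sample, while Aiolos mRNA in 697 was well above it.

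*ERG* separated the lines most clearly among the abundant members. It was at 465, 449 and 429 CPM in the REH controls, 124, 120 and 128 in RCH-ACV and 48.9, 46.2 and 42.8 in 697. No samples of different lines overlapped, and the level in 697 was 0.104 times that in REH (log2 -3.27, SE 0.06, adjusted p = 3.92e-19, edgeR). The change from REH to 697 was larger than that of 89.0% of all genes tested.

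*ETV6* was low in REH at 15.7, 16.7 and 12.3 CPM, against 86.6, 71.8 and 82.1 in 697 and 51.3, 53.0 and 51.9 in RCH-ACV. The level in 697 exceeded that in REH by 2.41 on the log2 scale (SE 0.09, adjusted p = 4.49e-14). REH is known to have lost the *ETV6* allele that is not in the fusion. *RUNX1* was at 375 ± 19.5 CPM in REH, 699 ± 42.8 in 697 and 515 ± 16.7 in RCH-ACV, without overlap. *TCF3* was at 552, 589 and 570 CPM in REH and overlapped between 697 (317, 352 and 401 CPM) and RCH-ACV (369, 322 and 414 CPM), whose means did not pass the test (log2 0.05, SE 0.08, adjusted p = 0.597). Reads of a fusion transcript count towards the gene they fall in, so fused and intact transcripts of *ETV6* and *RUNX1* cannot be told apart in these tables.

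Levels of different genes were compared only per length, as CPM per kilobase of the GENCODE canonical transcript. That transcript need not be the RefSeq transcript on which the reads were counted, so the order of genes at close levels depends on the length used. *LEF1* was the highest member in each line, at 249 CPM per kilobase in RCH-ACV, 229 in 697 and 206 in REH, while *IKZF3* was the lowest. In REH *TCF3* (120) and *PAX5* (100) followed, then *ERG* (91.3) and *IKZF1* (86.5), whose samples overlapped, and then *EBF1* (65.9) and *RUNX1* (62.9), whose samples also overlapped. In 697 *RUNX1* (117) came after *LEF1*, and *ERG* (9.38) stood second from the bottom. In RCH-ACV *PAX5* (88.2), *EBF1* (86.8), *RUNX1* (86.2) and *TCF3* (77.7) could not be ordered, because the samples of each overlapped with those of the next.

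The member changes that passed with *SOX11* siRNA lay between -0.52 (*ERG*) and 0.25 (*RUNX1*) on the log2 scale, both in RCH-ACV. Their sizes exceeded those of 69.2% (*EBF1* in REH) to 97.6% (*ERG* in 697) of all genes tested in the line. In REH 2 of 10 members passed the test, *EBF1* lower and *FOXO1* higher, where 4.65% of 12787 genes passed. In 697 2 of 10 passed, *EBF1* and *ERG*, both lower, where 0.559% of 12169 genes passed. In RCH-ACV 3 of the 9 members tested passed, *IKZF1* and *ERG* lower and *RUNX1* higher, where 7.51% of 12963 genes passed. *IKZF3* was left out of the RCH-ACV test by the filter on low counts. Samples did not overlap between *SOX11* siRNA and control for 5 members in each line, against 21.4% of all genes tested in REH, 13.1% of those in 697 and 25.9% of those in RCH-ACV. The members were chosen with earlier results of these data known, so setting their counts against these shares tests nothing.

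**Figure D2:**
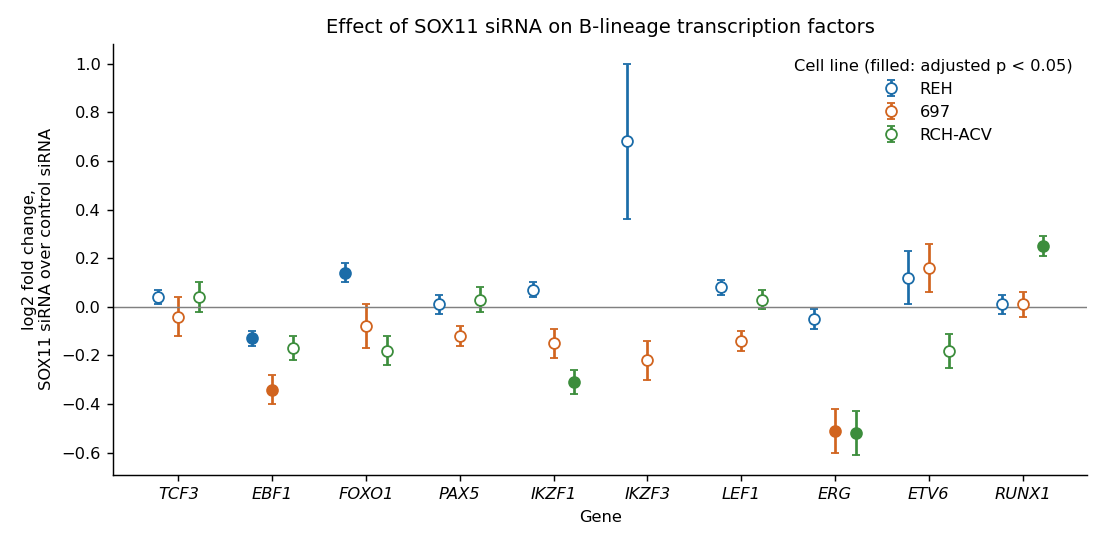
Log2 fold change of each factor with *SOX11* siRNA over control siRNA in each line (points, with standard errors from edgeR as bars, n = 3 against 3). Filled points passed the adjusted p threshold of 0.05. *EBF1* lies below 0 in all lines, *ERG* lies near -0.5 in 697 and RCH-ACV and near 0 in REH, and *IKZF3* in RCH-ACV was not tested.

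*EBF1* and *ERG* also passed in a fit over all 18 samples with cell line as a covariate, in which 8.14% of 14026 genes passed. The common effect was a decrease to 0.864 times control for *EBF1* (log2 -0.21, SE 0.04, adjusted p = 0.000272) and to 0.807 times control for *ERG* (log2 -0.31, SE 0.07, adjusted p = 0.00321). The other 8 members did not pass, the nearest being *IKZF1* (log2 -0.13, SE 0.04, adjusted p = 0.0621) and *RUNX1* (log2 0.09, SE 0.04, adjusted p = 0.124). Leaving out any of the 18 samples changed neither the *EBF1* nor the *ERG* call. The test of a different effect between the lines was passed by *IKZF1* alone (adjusted p = 0.0147), where 0.734% of genes passed.

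**Figure D3:**
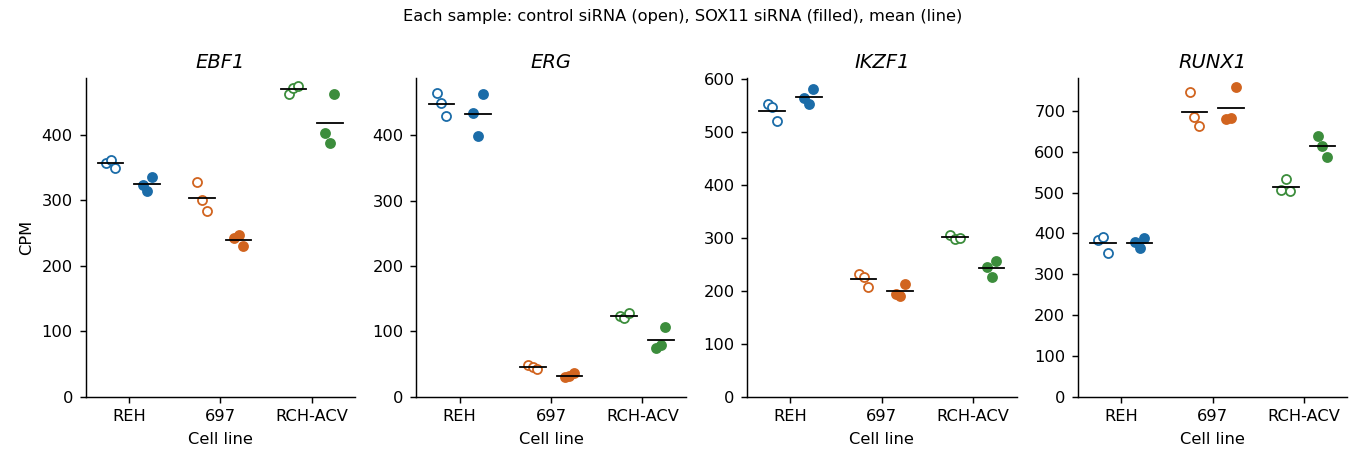
CPM of *EBF1*, *ERG*, *IKZF1* and *RUNX1* in every sample, with control siRNA as open points, *SOX11* siRNA as filled points and means as bars (n = 3). *EBF1* is separate between the groups in REH and 697, and in RCH-ACV 1 *SOX11* siRNA sample at 463 CPM reaches the controls.

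*EBF1*, the B-lineage pioneer factor, was at 357, 362 and 350 CPM with control siRNA in REH and at 323, 314 and 336 CPM with *SOX11* siRNA. Every *SOX11* siRNA sample was lower, at 0.915 times control on average (log2 -0.13, SE 0.03, adjusted p = 0.0288, edgeR). In 697 it went from 328, 300 and 283 CPM to 242, 247 and 231 CPM, again without overlap, and fell by 0.34 on the log2 scale (SE 0.06, adjusted p = 0.0319). In RCH-ACV it was at 463, 471 and 474 CPM with control siRNA and at 403, 388 and 463 CPM with *SOX11* siRNA, and the third *SOX11* siRNA sample overlapped the controls (log2 -0.17, SE 0.05, adjusted p = 0.0579). Without that sample the RCH-ACV change was -0.25 (adjusted p = 2.9e-06). The calls in single lines rested on few samples: *EBF1* in REH passed when *SOX11* siRNA replicate 3 was left out and not when any of the other 5 was (adjusted p 0.0654 to 0.145), and in 697 it passed without control replicate 1 or 3 and not without any of the other 4 (adjusted p 0.0870 to 0.200). The difference of the *EBF1* effect between lines did not pass (adjusted p = 0.445).

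*ERG*, an ETS factor of stem and progenitor cells, was at 48.9, 46.2 and 42.8 CPM with control siRNA in 697 and at 29.7, 31.5 and 35.8 CPM with *SOX11* siRNA. All 3 *SOX11* siRNA samples were below all controls, and the level was 0.703 times control (log2 -0.51, SE 0.09, adjusted p = 0.0352, edgeR). In RCH-ACV the values were 124, 120 and 128 CPM against 73.9, 79.8 and 106 CPM, also without overlap (0.696 times control, log2 -0.52, SE 0.09, adjusted p = 0.00167). In REH, where *ERG* was most abundant, the groups overlapped, with 465, 449 and 429 CPM against 434, 398 and 463 CPM (log2 -0.05, SE 0.04, adjusted p = 0.638). The RCH-ACV decrease passed without any 1 of its 6 samples (log2 -0.68 to -0.43), whereas the 697 decrease passed only without *SOX11* siRNA replicate 3 (adjusted p 0.0610 to 0.241 without each of the other 5). The difference of the effect between the lines missed the threshold (adjusted p = 0.0664) and passed without RCH-ACV *SOX11* siRNA replicate 3 (adjusted p = 0.000259), without 697 *SOX11* siRNA replicate 3 (0.0310) and without 697 control replicate 1 (0.0366).

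*IKZF1*, which encodes Ikaros, was at 305, 299 and 300 CPM with control siRNA in RCH-ACV and at 245, 227 and 257 CPM with *SOX11* siRNA. The groups were separate, and the level was 0.805 times control (log2 -0.31, SE 0.05, adjusted p = 0.000522, edgeR). In 697 the values were 232, 226 and 207 CPM against 194, 191 and 214 CPM, which overlapped (log2 -0.15, SE 0.06, adjusted p = 0.477). In REH all *SOX11* siRNA samples (565, 554 and 582 CPM) were above all controls (553, 548 and 521 CPM), by 0.07 on the log2 scale (SE 0.03, adjusted p = 0.242). The RCH-ACV decrease passed without any 1 of its 6 samples. The difference between lines was lost without REH *SOX11* siRNA replicate 3 (adjusted p = 0.0655), REH control replicate 3 (0.0709), RCH-ACV *SOX11* siRNA replicate 2 (0.0644) or RCH-ACV control replicate 1 (0.0508), and passed without each of the other 14 samples.

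*RUNX1*, the core-binding factor subunit fused to *ETV6* in REH, was at 507, 534 and 503 CPM with control siRNA in RCH-ACV and at 639, 614 and 588 CPM with *SOX11* siRNA. Of the 9 members tested in this line *RUNX1* was the one called higher. It rose by 19.2% (log2 0.25, SE 0.04, adjusted p = 0.00114, edgeR), and passed without any 1 of the 6 samples. In REH (383, 390 and 353 against 380, 363 and 388 CPM) and in 697 (746, 685 and 664 against 679, 683 and 759 CPM) the groups overlapped, with log2 changes of 0.01 in both. The difference of the effect between lines did not pass (adjusted p = 0.157).

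*FOXO1* was at 158, 161 and 152 CPM with control siRNA in REH and at 171, 168 and 179 CPM with *SOX11* siRNA. The groups were separate, and the rise of 10.3% was close to the threshold (log2 0.14, SE 0.04, adjusted p = 0.0476, edgeR); it did not pass without any 1 of the 6 samples (adjusted p 0.0521 to 0.229). In RCH-ACV the direction was the opposite, with 85.4, 87.0 and 87.4 CPM against 79.9, 72.2 and 78.8 CPM and no overlap (log2 -0.18, SE 0.06, adjusted p = 0.0634). In 697 the groups overlapped (70.2, 60.8 and 65.2 against 54.1, 62.5 and 68.9 CPM). The difference between lines did not pass (adjusted p = 0.218).

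The remaining members passed in no line. *PAX5* changed by 0.01, -0.12 and 0.03 on the log2 scale in REH, 697 and RCH-ACV (SE 0.04, 0.04 and 0.05), and *TCF3* by 0.04, -0.04 and 0.04 (SE 0.03, 0.08 and 0.06). *LEF1* was at 727, 731 and 750 CPM against 795, 753 and 776 CPM in REH and at 854, 789 and 809 against 750, 704 and 783 CPM in 697, so the samples were separate in opposite directions in the 2 lines (adjusted p = 0.159 and 0.364), and the difference between lines did not pass (adjusted p = 0.225). *ETV6* was lower in all RCH-ACV *SOX11* siRNA samples (43.9, 44.3 and 50.1 CPM) than in the controls (51.3, 53.0 and 51.9 CPM; adjusted p = 0.123). *IKZF3* in 697 was at 50.3, 45.8 and 45.9 CPM against 38.5, 39.2 and 44.8 CPM without overlap (log2 -0.22, SE 0.08, adjusted p = 0.474). In REH its counts of 13, 11 and 6 against 17, 13 and 14 were too few to resolve the change of 0.68 (SE 0.32, adjusted p = 0.290).

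RCH-ACV *SOX11* siRNA replicate 3 stood nearer to the controls than its companions for *EBF1*, *ERG*, *IKZF1*, *ETV6* and *RUNX1*, while its *SOX11* level (86.7 CPM, against 81.5 and 78.7) was also the highest of the 3. Without it 6 members passed in RCH-ACV, *EBF1*, *FOXO1*, *IKZF1*, *ERG* and *ETV6* lower and *RUNX1* higher, and 2479 genes passed in place of 973. What set this sample apart was not tested.

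The transcripts of 4 members were also kept apart. The tables count reads on each RefSeq transcript, so transcripts of a gene share most reads and are not separate measurements. *EBF1* has 3 listed transcripts, and NM_024007 held 99.4 to 99.9% and NM_182708 96.5 to 97.5% as many reads as the highest, NM_001290360, over the 18 samples. When transcripts were tested apart, 5.21% passed in REH, 0.815% in 697 and 8.78% in RCH-ACV. All 3 *EBF1* transcripts fell in REH (adjusted p 0.0152 to 0.0235) and in 697 (0.0166 to 0.0192), and in RCH-ACV NM_001290360 (0.0486) and NM_024007 (0.0489) passed and NM_182708 (0.0505) did not. NM_001290360 also represented *EBF1* in the gene test, where the same RCH-ACV counts did not pass (adjusted p = 0.0579, edgeR). The adjustment here ran over 29578 transcripts that share reads, in place of 12963 genes, so RCH-ACV gains no separate call. In REH the ratio of NM_182708 went from 97.2, 97.1 and 97.2% to 96.6, 96.5 and 96.6%, and in the other lines it overlapped between groups. *ETV6* has a single listed transcript.

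For *RUNX1* the tables list the long forms RUNX1b (NM_001001890, the highest) and RUNX1c (NM_001754) and the short form RUNX1a (NM_001122607), which lacks the part of the protein that activates transcription. RUNX1a held 24.5, 24.9 and 24.2% as many reads as RUNX1b in the RCH-ACV controls and 27.6, 28.1 and 26.4% with *SOX11* siRNA. All 3 *SOX11* siRNA samples were higher. RUNX1c went the other way, from 84.9, 85.8 and 85.5% to 82.3, 81.9 and 83.9%. Both ratio shifts had a two-sided exact permutation p of 0.1 (0.375 adjusted). In the transcript test the reads counted on RUNX1a rose by 0.41 on the log2 scale (SE 0.06, adjusted p = 0.000123). Those on RUNX1b rose by 0.25 (SE 0.04, adjusted p = 0.000692) and those on RUNX1c by 0.20 (SE 0.04, adjusted p = 0.00375). The forms share reads, so the amount of each form was not measured. The ratios overlapped between groups in REH (RUNX1a 24.3 to 25.9%) and in 697 (27.1 to 29.5%).

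**Figure D4:**
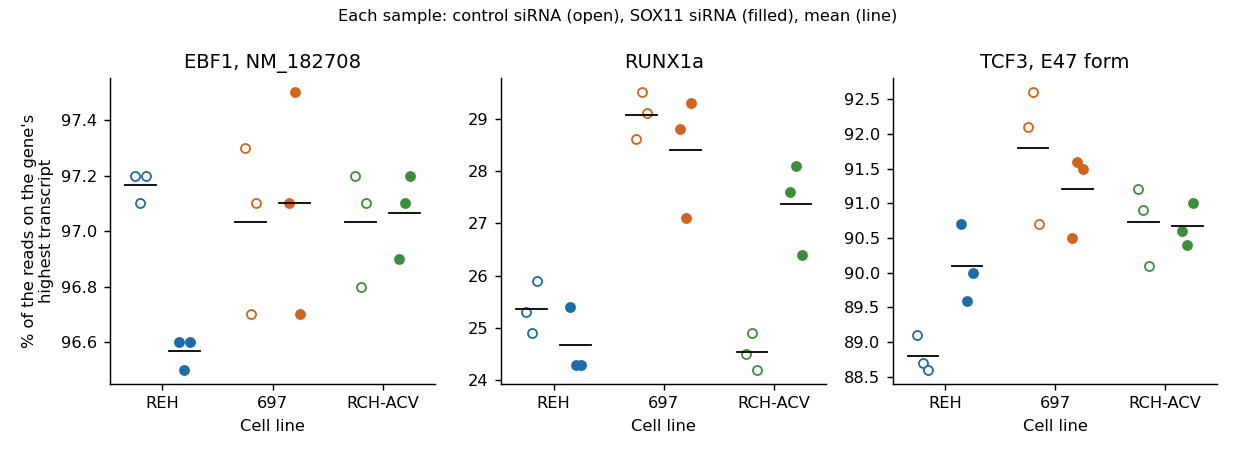
Reads on 1 transcript as a percentage of the reads on the highest transcript of the same gene, for *EBF1*, *RUNX1* and *TCF3* in every sample (open, control siRNA; filled, *SOX11* siRNA; bars, means, n = 3). Axes do not start at 0. The percentage for RUNX1a, which shares reads with the other forms, is higher with *SOX11* siRNA in RCH-ACV, from 24.5% to 27.4% on average.

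For *TCF3* the E47 form (NM_001136139) held 89.1, 88.7 and 88.6% as many reads as the E12 form (NM_003200) in the REH controls and 90.7, 89.6 and 90.0% with *SOX11* siRNA, without overlap. In 697 and RCH-ACV the ratios overlapped between groups and lay between 90.1 and 92.6%. Neither *TCF3* transcript passed in any line. Over the 15 ratios compared (5 transcripts in 3 lines), 4 were separate between the groups, and their two-sided exact permutation p was 0.1, the smallest that 3 samples against 3 can give (0.375 after Benjamini-Hochberg adjustment over the 15).

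Genes that the factors are known to regulate or work with were read from lists, beside the share of all genes called, which was 4.65% for REH, 0.559% for 697 and 7.51% for RCH-ACV. The lists were also chosen with earlier results of these data known, so the shares beside them are description and no test. Of 32 target genes of EBF1, PAX5 and the E proteins, 6 of the 27 tested in REH passed, all higher, with a list median log2 change of 0.08 against -0.002 for all genes. They included *RAG1*, a recombinase subunit (1825, 1825 and 1788 against 2053, 2013 and 2149 CPM; log2 0.20, SE 0.03, adjusted p = 6.15e-05), *CD79A*, a signal chain of the B-cell receptor (log2 0.13, adjusted p = 0.0252), and *FOXO1* itself. In 697 5 of 27 passed, all lower, with a list median of -0.12, among them *VPREB3* (183, 206 and 197 against 130, 131 and 115 CPM; log2 -0.64, SE 0.07, adjusted p = 0.00244), *DNTT* (log2 -0.27, adjusted p = 0.0280), the terminal transferase gene, and *RAG1* (log2 -0.41, adjusted p = 0.0326). In RCH-ACV 4 of 29 were higher and 3 lower, with a median of 0.00. *CD79A* rose there (134, 123 and 127 against 179, 190 and 159 CPM; log2 0.46, SE 0.06, adjusted p = 0.000261) and *DNTT* fell (log2 -0.37, adjusted p = 0.00693).

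Of 25 FOXO1 target genes, 2 of the 19 tested passed in REH, both higher (*RAG1* among them), 2 of 22 in 697, both lower (*RAG1* and *IL7R*, the interleukin-7 receptor, log2 -0.22), and 3 of 21 in RCH-ACV, all lower (*IRS2*, log2 -0.43, *CCNG2*, -0.25, and *IL7R*, -0.17). Of 20 Ikaros target genes, 2 were higher and 2 lower of 18 tested in REH. These were *ITGB1* and *INPP5D* (log2 0.34 and 0.32), and *CCND2* and *MYC* (log2 -1.68 and -0.25). In 697 3 of 18 and in RCH-ACV 3 of 18 passed, all lower, and *DNTT* and *IL7R* were among them in both lines. The share of all genes called was 4.65%, 0.559% and 7.51% for REH, 697 and RCH-ACV. The target lists share genes, so their counts are not independent.

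Of 50 partner factors and paralogs, 8 were higher and 2 lower of 42 tested in REH, 1 of 41 was lower in 697, and 2 were higher and 5 lower of 42 in RCH-ACV, against 4.65%, 0.559% and 7.51% of all genes. *TCF4*, the paralog of *TCF3*, was the factor that passed in 697 (223, 197 and 195 against 149, 142 and 153 CPM; log2 -0.47, SE 0.06, adjusted p = 0.00414). It fell in RCH-ACV as well (297, 295 and 310 against 203, 204 and 293 CPM; log2 -0.37, SE 0.09, adjusted p = 0.0248). *IKZF2*, which encodes the Ikaros relative Helios, rose in REH (log2 0.45, adjusted p = 1.54e-05) and in RCH-ACV (log2 0.37, adjusted p = 0.00146). *ZNF423*, whose product binds and restrains EBF1, fell in REH (46.2, 51.7 and 48.4 against 37.5, 34.5 and 37.9 CPM; log2 -0.41, adjusted p = 0.000413) and in RCH-ACV (log2 -0.36, adjusted p = 0.0444). *IRF4* (log2 0.41), *BACH2* (0.24), *POU2F2* (0.76) and *TCF7* (0.69) rose in REH, and *MYB* (-0.25) and *TLE1* (-0.34) fell and *BCL11A* (0.28) rose in RCH-ACV.

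Among the stage and lineage lists, 4 of 11 B-cell precursor markers tested were higher in REH, led by *MME*, which encodes CD10 (log2 0.36, SE 0.03, adjusted p = 5.38e-08). In 697 2 of 12 were lower, and in RCH-ACV 3 were higher and 2 lower of 12, again against 4.65%, 0.559% and 7.51% of all genes in REH, 697 and RCH-ACV. In bulk RNA fewer cells of a kind and less RNA per cell cannot be told apart. Of the 6 plasma cell genes, 1 of 4 tested was higher in REH (*IRF4*), 0 of 5 passed in 697, and 2 were higher and 1 lower of 6 in RCH-ACV. *JCHAIN*, which joins secreted immunoglobulin, rose in RCH-ACV from 6.94, 8.31 and 6.28 CPM to 36.3, 34.9 and 25.2 CPM (log2 2.18, SE 0.15, adjusted p = 5.03e-07). *MZB1* rose as well (log2 0.35, SE 0.08, adjusted p = 0.0122), and *XBP1*, a factor of secretory cells, fell (log2 -0.17, SE 0.04, adjusted p = 0.0207). Few markers of other lineages had enough counts to be tested. Of 10 T-cell markers the test covered 2 for REH, 2 for 697 and 1 for RCH-ACV, and of 9 erythroid and megakaryocyte markers 2, 0 and 3, and none of those tested passed. Of 11 myeloid markers 2, 2 and 3 were tested, and 1 passed, *MPO* in REH, which fell, at 12.7, 14.9 and 12.9 against 7.48, 7.50 and 8.70 CPM. Their part in the changes of the 10 factors was not tested.

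The genes most like each factor were found by Pearson's r of log2 CPM over the 18 samples among 13344 genes, as a description. Across all samples the correlations follow the 3 lines, and *FOXO1* and *IKZF1* were among each other's most similar genes (r = 0.991). After the mean of each line was subtracted, *ERG* was closest to *MYO5C* (r = 0.970) and *TCF4* (r = 0.962), *EBF1* to *CGGBP1* (0.933) and *FOXO3* (0.932), *IKZF1* to *TFDP2* (0.925) and *AFDN* (0.916), and *RUNX1* to *OAS2* (0.900) and *MYL12B* (0.891). The samples share their line, their siRNA group and their depth, so these values rank genes and test nothing.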

How the data were processed

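Libraries of poly(A) RNA were made with the TruSeq Stranded mRNA kit from 3 biological replicates of each group. The authors checked reads with FastQC 0.10.1, trimmed and filtered them with the FASTX Toolkit, aligned them to hg19 with STAR 2.5.3a, discarding reads that mapped to more than 2 places, and used HOMER to count them per RefSeq transcript. They deposited raw counts, without normalization, in 1 table per cell line. The setting for strand in counting is not given in the sources used here, so reads of an overlapping antisense gene cannot be told apart from those of a member.

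Symbols were matched for 98.0% of transcripts and 99.0% of counts, and transcripts without a symbol stayed as rows of their own. Each gene was represented by its transcript with most reads in all 18 samples. Each line was fitted with edgeR 4.0.16 in R 4.3.3 (TMM, filterByExpr, quasi-likelihood F-test, two-sided, Benjamini-Hochberg over all genes). Further fits covered the common effect, its interaction with line, the 9 control samples and all transcripts. CPM used TMM factors over the 18 samples, and standard errors are the log2 fold change over the square root of F. Lengths came from GENCODE canonical transcripts, since the tables hold none.

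As alternatives, library size alone or RLE size factors replaced TMM, and the others were no filter on low counts, CPM above 1 in at least 3 samples, DESeq2 1.42.0, the replicate number as a block, an adjusted p under 0.01, the transcript highest within a line, 1 fit over the 18 samples, and leaving out each sample. The fits were tested on simulated counts whose changes were larger than any called for a member with *SOX11* siRNA. That test does not cover changes as small as those of the members. The members and lists were chosen with earlier results of these data known. All 10 members were named, and from each list up to 6 called genes per line by size of change, apart from items not reported here. The 2 genes with the highest r were taken as most like a member. Tables were made with pandas 2.3.3 and scipy 1.17.1 in Python 3.11.15, and plots with matplotlib 3.10.9.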

Additional observations from a re-analysis of the deposited data

Results flagged for a closer look

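The effect of *SOX11* siRNA on *IKZF1* differed between the lines by a test of the difference itself (edgeR quasi-likelihood F-test of the interaction, adjusted p = 0.0147 over 14026 genes). The log2 changes were 0.07 in REH (SE 0.03, 3 of 3 *SOX11* siRNA samples above all controls), -0.15 in 697 (SE 0.06, groups overlapping) and -0.31 in RCH-ACV (SE 0.05, 3 of 3 below all controls). Under the alternatives the adjusted p of this difference lay between 0.000158 without a filter on low counts and 0.134 with the replicate block. No other member passed this test. Groups of 3 samples are too small for the test of single outlying samples.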

How the results depend on the processing

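Of 1165 values of single members under the alternatives, 1087 kept direction and call, 38 lost the call, 12 gained it and 28 reversed. For both members called in REH and both called in 697, 0 passed at an adjusted p under 0.01 or with the replicate block. In REH 0 passed with DESeq2 or 1 fit over the 18 samples, and 1 with library size alone. The common effect called 4 members without a filter on low counts, in place of 2. The difference between lines called 0 at an adjusted p under 0.01, 3 without a filter, 2 with the DESeq2 likelihood-ratio test and 0 with the replicate block. In RCH-ACV the replicate block and the fit without a filter on low counts each called 4 members in place of 3, adding *EBF1* (adjusted p = 0.05 and 0.00227). Of the transcripts of *EBF1*, *ETV6*, *RUNX1* and *TCF3*, 1 passed in REH with the replicate block in place of 3, and 3 passed in RCH-ACV with RLE size factors in place of 5. The replicate numbers share only a number: deviations of same-numbered samples correlated between -0.180 and 0.177 over the lines, and nothing in the labels ties them.

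Leaving out 1 sample gave 0 to 1 members called in REH and in 697, 3 to 6 in RCH-ACV, 2 to 3 for the common effect and 0 to 3 for the difference between lines. Transcripts called then ranged from 0 to 3 in REH and in 697 and from 3 to 7 in RCH-ACV. Counts between the control lines stayed within 8 to 10. Directions that reversed belonged to members not called in that comparison. Without 1 sample, log2 values spanned 0 as follows: in REH *PAX5* -0.01 to 0.07, *ERG* -0.09 to 0.00 and *RUNX1* -0.03 to 0.04. In 697 *TCF3* spanned -0.12 to 0.06, *FOXO1* -0.16 to 0.00 and *RUNX1* -0.03 to 0.06. In RCH-ACV *TCF3* spanned -0.05 to 0.13, *PAX5* -0.05 to 0.08 and *LEF1* -0.01 to 0.06. For the common effect *TCF3*, *LEF1* and *ETV6* spanned -0.01 to 0.04, -0.02 to 0.01 and -0.03 to 0.06, and *IKZF3* was 0.15 with DESeq2. Between controls *PAX5* spanned -0.03 to 0.06 for 697 minus REH, and was -0.12 under library size alone. That scaling lowered the 697 minus REH control difference of every member, for example that of *FOXO1* from -1.25 to -1.39. *TCF3* spanned -0.03 to 0.14 for RCH-ACV minus 697. The causes were not tested. At these depths *IKZF3* cannot be resolved in RCH-ACV.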
